A study of Homo sapiens with 4 samples.

Results

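Complex I (NADH:ubiquinone oxidoreductase) is described here through the transcripts of its nuclear subunits and assembly factors in human SK-N-BE(2) neuroblastoma cells with lowered CDK5RAP3. The members are the protein-coding nuclear genes of the count table whose symbol starts with NDUF, together with ACAD9, ECSIT, TMEM126B, TIMMDC1, FOXRED1 and NUBPL, with 1 row per symbol. They number 54 of 64252 rows: 37 subunits, 14 assembly factors and 3 others, namely NDUFA4, its paralog NDUFA4L2 and the read-through NDUFC2-KCTD14. The study has 2 RNA-seq libraries of cells carrying a short hairpin RNA against CDK5RAP3 (genotype shCDK5RAP3) and 2 of cells carrying a control hairpin (genotype shControl). SK-N-BE(2) is a neuroblastoma line with an amplified MYCN gene, all 4 libraries come from it, and both groups carry a hairpin. The sources used here do not say how many hairpins were used or what they were, and no label says whether the libraries of a group are separate cultures, so p-values measure only the spread between these libraries, which may be technical.

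Complex I is the entry point of electrons from NADH into the respiratory chain and couples their passage to ubiquinone with proton pumping across the inner mitochondrial membrane. Its peripheral arm holds the N module, which oxidises NADH, and the Q module, which reduces ubiquinone, and its membrane arm holds the proton-pumping modules built around mitochondrially encoded ND subunits. Assembly factors build the modules and join them, and are not part of the finished enzyme.

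CDK5RAP3, a partner of the UFM1 ligase UFL1 and the target of the hairpin, had 58.5 and 57.1 CPM (the count relative to library size, scaled by TMM factors) in the shCDK5RAP3 libraries, against 87.4 and 98.6 CPM in the shControl libraries. It fell to 62.1% of its shControl level (log2 change -0.69 ± 0.08 SE, edgeR adjusted p = 0.000163). Total counts lay between 28653689 and 30138393 per library. Counting noise was exceeded in every pair of libraries: the chi-square per degree of freedom was 6.77 between the shCDK5RAP3 libraries, 8.65 between the shControl libraries and 77.4 to 88.0 between groups. The 7 noradrenergic neuroblastoma markers were detected in every library and summed to 4463 and 4608 CPM in the shCDK5RAP3 libraries, against 6980 and 7418 CPM in the shControl libraries. Of these, 6 fell (edgeR adjusted p under 0.05), where 21.8% of all tested genes did. The 3 leukocyte, 3 endothelial and 3 epithelial markers each summed to 7.47 CPM or less in every library, with PECAM1 at 0 in all but shCDK5RAP3 replicate 1. The 4 fibroblast markers summed to 119 and 116 CPM in the shCDK5RAP3 libraries, against 243 and 250 CPM in the shControl libraries, mostly from LUM. The part of these markers in the results below was not tested.

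More complex I subunits rose than fell. Of the 37 subunits, 16 were higher in the shCDK5RAP3 libraries (43.2%), where 19.7% of all 18775 tested genes were, and 3 were lower (8.11%), where 21.8% of all tested genes were (edgeR adjusted p under 0.05). The remaining 18 subunits did not pass. Most changes were small: log2 changes ran between -0.85 and 0.72 with a median of 0.20, beside -0.003 over all tested genes, whose interquartile range was -0.42 to 0.33. Since bulk RNA was measured, fewer cells of a type and less RNA per cell cannot be told apart.

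Assembly factors went both ways, with a median near 0. Of 14, 3 were higher and 1 was lower, with a median log2 change of 0.01 and a range of -0.59 to 0.40. The medians of subunits and assembly factors differed by 0.18 on the log2 scale, a difference that was not tested. The groups did not overlap for 22 subunits that lay higher and 5 that lay lower in the shCDK5RAP3 libraries, and for 5 higher and 4 lower assembly factors, where 35% of all tested genes lay higher without overlap and 36.4% lower. Most members are well expressed, and among the 9099 tested genes with a mean log2 CPM of at least 4, 30.5% were called higher and 26.5% lower, with a median of 0.04.

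The same order of groups held for the summed levels of the subunits. Their CPM summed to 3439 and 3740 in the shCDK5RAP3 libraries, against 3053 and 3355 in the shControl libraries, so the groups did not overlap but lay close, with shCDK5RAP3 replicate 1 just above shControl replicate 2. The assembly factors summed to 569.5 and 621.1 CPM in the shCDK5RAP3 libraries, against 561.1 and 591.9 CPM in the shControl libraries, and there the groups overlapped. In the shCDK5RAP3 libraries replicate 2 lay above replicate 1 for 28 of 37 subunits, and in the shControl libraries for 34 of 37. For assembly factors these counts were 11 and 10 of 14. Many members thus shared a difference between the libraries of a group. The share over all tested genes was not taken, so whether that difference is particular to complex I genes was not tested.

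The number of subunits called higher depends on single libraries. It was 9 without shCDK5RAP3 replicate 1, 2 without shCDK5RAP3 replicate 2, 7 without shControl replicate 1 and 19 without shControl replicate 2, while the share of all tested genes called higher was 11.3%, 7.86%, 17.6% and 17.8% in that order. Without shCDK5RAP3 replicate 2 the share of subunits called higher thus lay below that of all tested genes, and without shControl replicate 1 near it. With either other library left out it lay above. A group left with 1 library is assumed to vary like the other. The calls of NDUFAB1 and NDUFA9 (higher) and of NDUFB5, NDUFC2 and NDUFA12 (lower) were kept in each of the 15 alternatives run, while the other 14 rises did not pass when shCDK5RAP3 replicate 2 was left out (edgeR adjusted p between 0.0513 and 0.436). Without shControl replicate 1, NDUFB11 and NDUFA3 were called lower as well, making 5 subunits, where 18.6% of all tested genes were lower. Of the assembly factors 1 was higher without shCDK5RAP3 replicate 1, and 0 were higher and 0 lower without shCDK5RAP3 replicate 2. Without a filter on low counts 5 subunits were called higher, as were 5.8% of all tested genes. The median change of the subunits stayed above 0 with each library left out, between 0.13 and 0.27, and that of the assembly factors lay between -0.11 and 0.12.

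**Figure D1:**
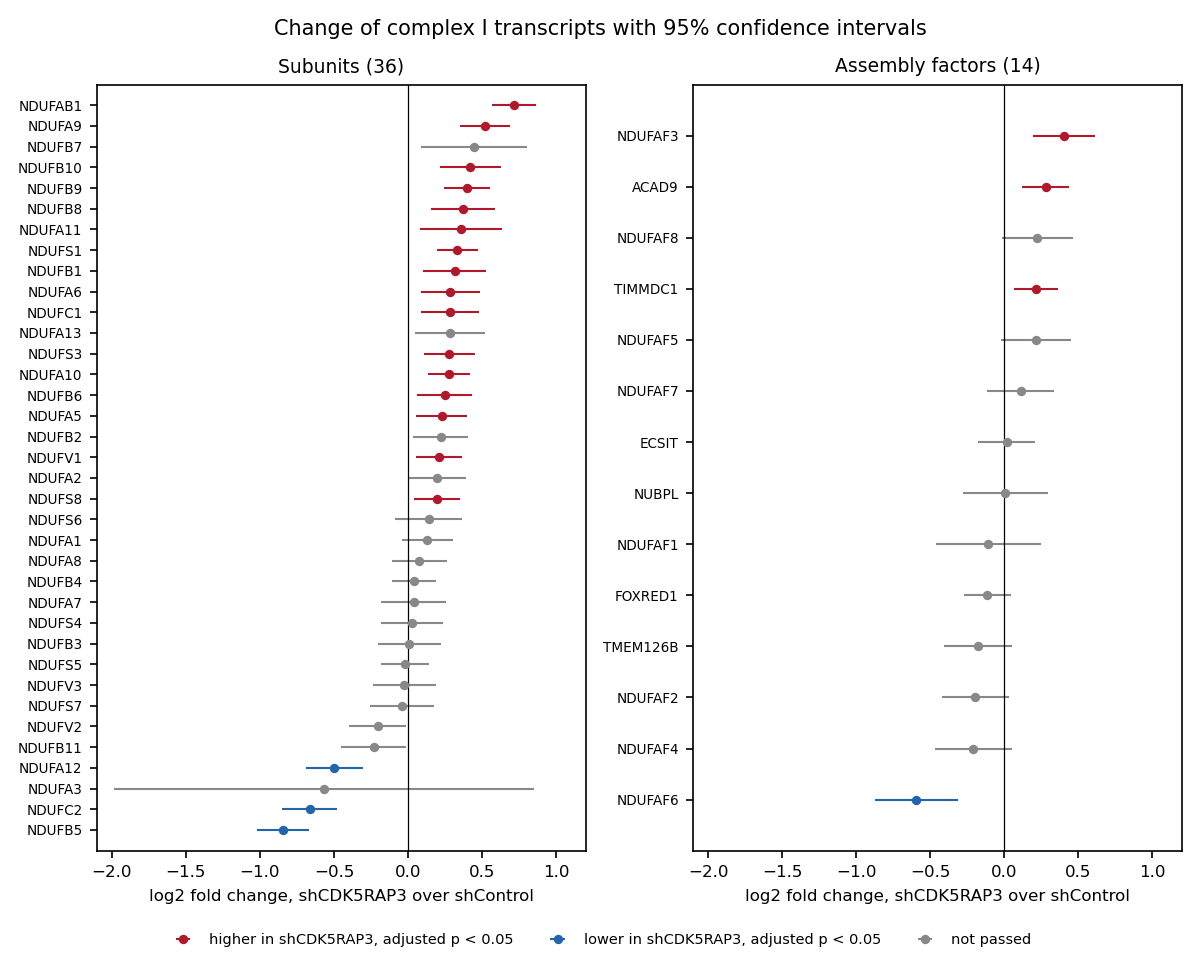
Log2 fold change (shCDK5RAP3 over shControl, x axis) of 36 subunits and 14 assembly factors, with the 95% confidence interval from the edgeR fit over 2 libraries per group. Subunits crowd to the right of 0, with NDUFAB1 (0.72) at the top and NDUFC2 (-0.66) and NDUFB5 (-0.85) at the bottom, and the wide bar belongs to NDUFA3, which had few counts.

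**Figure D2:**
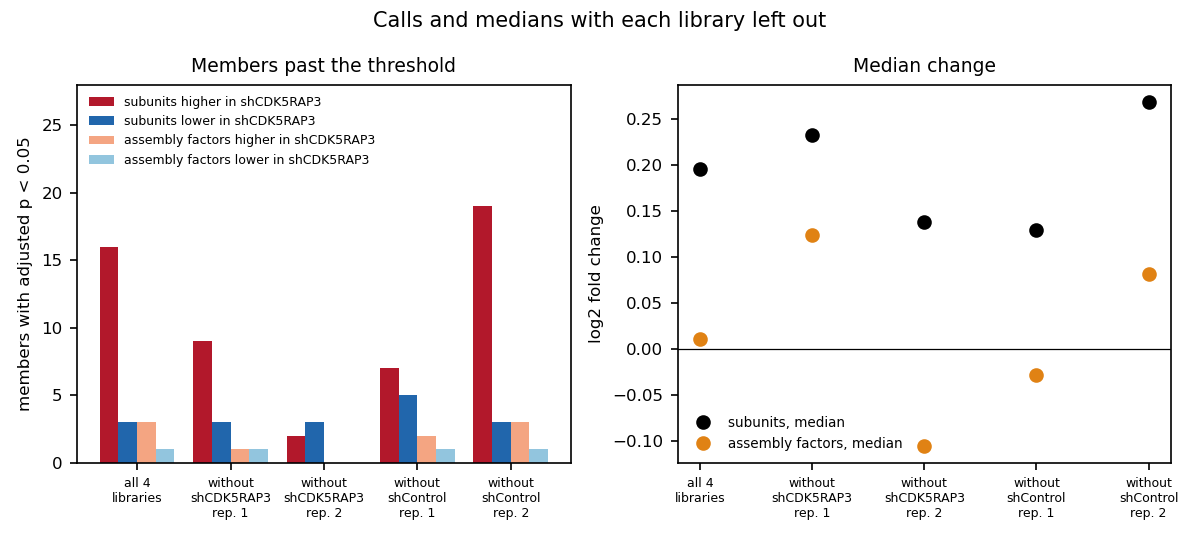
Left, number of members with an edgeR adjusted p under 0.05 in all 4 libraries and with each library left out; right, the median log2 fold change of the subunits and of the assembly factors in the same fits. Between 2 and 19 subunits were called higher, while the subunit median stayed above 0 and above the assembly factor median in every fit.

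The promoters of 3 subunits are shown, searched for words that the choice of members did not use. They are NDUFA9, whose rise was kept in every alternative, NDUFS1, the core subunit with the largest change, and NDUFA12, which fell. No word occurred in all 3. Each window runs from 250 bases before to 50 after the start of the gene, 5′ to 3′ on the strand of the gene (RefSeq, GRCh38.p14), and capitals mark matches, on either strand, to the word of the factor NRF1 (GCGCA and GCGC parted by any 1 base), to CCGGAAG of ETS factors, AANATGGCG of YY1 and CCAAT. The words were searched independently of each other, so matches may overlap.
NDUFA9, chr12:4648864-4649163, plus strand, with an NRF1 and a YY1 word: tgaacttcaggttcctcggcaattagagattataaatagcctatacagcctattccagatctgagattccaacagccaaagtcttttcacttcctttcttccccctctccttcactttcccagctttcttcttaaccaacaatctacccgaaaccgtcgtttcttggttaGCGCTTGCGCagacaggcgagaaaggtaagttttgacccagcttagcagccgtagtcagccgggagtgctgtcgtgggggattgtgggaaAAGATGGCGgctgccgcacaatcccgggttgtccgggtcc
NDUFS1, chr2:206159395-206159694, minus strand, with an ETS and a YY1 word: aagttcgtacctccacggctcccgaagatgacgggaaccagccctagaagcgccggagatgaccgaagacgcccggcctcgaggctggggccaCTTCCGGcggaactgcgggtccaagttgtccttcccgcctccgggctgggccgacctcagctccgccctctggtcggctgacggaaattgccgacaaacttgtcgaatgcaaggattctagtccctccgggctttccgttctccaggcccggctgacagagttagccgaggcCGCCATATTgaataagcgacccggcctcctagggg
NDUFA12, chr12:95003648-95003947, minus strand, with an NRF1 word and CCAAT: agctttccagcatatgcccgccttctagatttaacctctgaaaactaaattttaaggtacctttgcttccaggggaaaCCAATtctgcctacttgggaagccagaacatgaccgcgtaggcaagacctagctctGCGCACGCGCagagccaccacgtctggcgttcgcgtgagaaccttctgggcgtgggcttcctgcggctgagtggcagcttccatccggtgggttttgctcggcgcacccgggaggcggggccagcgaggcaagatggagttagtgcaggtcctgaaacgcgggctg

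Of the 4 words, that of YY1 had the largest share among subunits relative to all windows. It occurred in 10 of the 32 subunit windows in the RefSeq table (31.2%) and in 0 of 12 assembly factor windows, against 3.37% of all 27305 windows. Of the 10 matches, 9 began after the start of the gene and 8 read on the strand of the gene. The word contains ATG, the letters of a start codon, and whether matches cover start codons was not tested. The 27305 windows were not limited to tested genes. Of the 10 subunits that hold the YY1 word, 5 rose (NDUFA9, NDUFS1, NDUFA6, NDUFS3 and NDUFS8) and 5 did not pass (NDUFS6, NDUFA7, NDUFS4, NDUFS7 and NDUFV2). That share of rises is close to the one over all 37 subunits, of which 16 rose (43.2%). The NRF1 word was in 6 subunit and 2 assembly factor windows against 6.28% of all windows, the ETS word in 5 and 2 against 10.7%, and CCAAT in 8 and 6 against 35.7%. A match describes the letters of the window and does not show that a factor binds there.

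The nuclear core subunits, which carry the redox centres and have counterparts in bacterial complex I, rose or did not pass. Of 7, 4 were higher and 3 did not pass (edgeR), beside 19.7% of all tested genes that were higher and 30.5% of those with a mean log2 CPM of at least 4. NDUFS1, which holds iron-sulfur clusters of the N module, had 217 and 212 CPM in the shCDK5RAP3 libraries, against 173 and 168 CPM in the shControl libraries (log2 change 0.33 ± 0.06 SE, edgeR adjusted p = 0.00223). Both shCDK5RAP3 libraries lay above both shControl libraries by more than the libraries of a group differed. NDUFV1, which binds NADH and FMN, had 306 and 309 CPM in the shCDK5RAP3 libraries, against 251 and 280 CPM in the shControl libraries (0.21 ± 0.07 SE, edgeR adjusted p = 0.0344). NDUFS3, a scaffold of the Q module, had 95.3 and 99.7 CPM in the shCDK5RAP3 libraries, against 75.6 and 85.2 CPM in the shControl libraries (0.28 ± 0.08 SE, edgeR adjusted p = 0.0162). In both of these genes the groups did not overlap, and the shControl libraries lay further apart than the shCDK5RAP3 libraries.

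NDUFS8, which carries iron-sulfur clusters close to the ubiquinone site, had 125 and 131 CPM in the shCDK5RAP3 libraries, against 107 and 117 CPM in the shControl libraries (log2 change 0.19 ± 0.07 SE, edgeR adjusted p = 0.0498). Its groups did not overlap, but its p is close to the threshold. The core subunits NDUFS7 and NDUFV2 did not pass. NDUFS7, which carries the cluster that passes electrons to ubiquinone, had 79.3 and 92.6 CPM in the shCDK5RAP3 libraries, against 82.1 and 95.1 CPM in the shControl libraries, with overlapping groups (-0.04 ± 0.10 SE, edgeR adjusted p = 0.751). NDUFV2, the partner of NDUFV1, was at 34.9 and 34.7 CPM in the shCDK5RAP3 libraries, against 38.8 and 41.4 CPM in the shControl libraries (-0.21 ± 0.08 SE, edgeR adjusted p = 0.0805), and it was called lower in 1 of the 15 alternatives. NDUFV1 and NDUFV2, whose proteins form the NADH-oxidising tip together, thus lay on opposite sides of 0.

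Each core call was lost with some library left out. Without shCDK5RAP3 replicate 2 the edgeR adjusted p was 0.0513 for NDUFS1, 0.227 for NDUFV1, 0.183 for NDUFS3 and 0.306 for NDUFS8. Without shCDK5RAP3 replicate 1 it was 0.16 for NDUFV1, 0.0836 for NDUFS3 and 0.142 for NDUFS8, and without shControl replicate 1 it was 0.171, 0.0698 and 0.203 for the same genes. Without a filter on low counts NDUFV1 (0.165), NDUFS3 (0.125) and NDUFS8 (0.181) did not pass, and with scaling by library size alone NDUFV1 (0.0594) and NDUFS8 (0.0851) did not. NDUFS8 also did not pass with DESeq2 (adjusted p = 0.0928). NDUFS3 shares 721 exon bases with PTPMT1 on the same strand, a gene at 1285 and 1420 counts in the shCDK5RAP3 libraries and 1243 and 1464 in the shControl libraries.

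Among the modules, that of the distal membrane arm around ND5 lay highest. All 6 of its nuclear subunits had a positive log2 change, with a median of 0.39, and 3 of them rose. One of the 6, NDUFB3, lay near 0 (0.01) with overlapping groups, and its sign turned in 4 of the 15 alternatives. In the Q module 4 of 6 rose and 2 did not pass (median 0.21), while the proximal membrane arm around ND1 and ND2 had 3 rises and 1 fall of 9 (0.13), the ND4 module 3 rises and 1 fall of 6 (0.14) and the N module 3 rises and 1 fall of 10 (0.09). Of all tested genes 19.7% rose and 21.8% fell, and of those with a mean log2 CPM of at least 4, 30.5% rose, which is about the share of rises in the N (30.0%) and proximal (33.3%) modules. The summed CPM of the ND5 module was 703.2 and 811.0 in the shCDK5RAP3 libraries, against 544.7 and 609.9 in the shControl libraries. For the ND4 module it was 435.1 and 459.6 in the shCDK5RAP3 libraries, against 424.8 and 474.2 in the shControl libraries, with the shCDK5RAP3 libraries inside the range of the shControl libraries. The 3 falls thus lay in 3 different modules. Differences between modules were not tested.

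**Figure D3:**
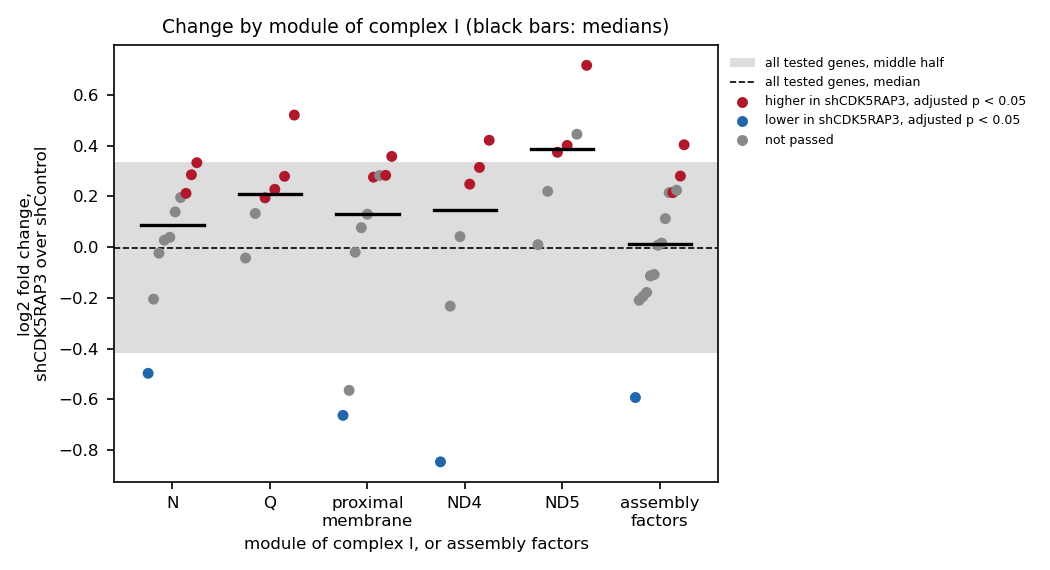
Log2 fold change (shCDK5RAP3 over shControl, y axis) of each member by module of complex I, with black bars at the medians and the grey band marking the interquartile range of all tested genes. The ND5 module has no point below 0 and a median of 0.39, and the N, proximal membrane and ND4 modules each hold 1 member that fell.

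NDUFAB1 rose most among the subunits. It encodes the mitochondrial acyl carrier protein, which takes part in mitochondrial fatty acid synthesis and iron-sulfur cluster assembly besides its place in complex I. It had 119 and 122 CPM in the shCDK5RAP3 libraries, against 70.8 and 75.9 CPM in the shControl libraries, or 164% of the shControl mean (log2 change 0.72 ± 0.07 SE, edgeR adjusted p = 5.47e-05). NDUFA9, a Q-module subunit at the junction with the membrane arm, had 104 and 118 CPM in the shCDK5RAP3 libraries, against 77.8 and 76.9 CPM in the shControl libraries (0.52 ± 0.07 SE, edgeR adjusted p = 0.000593). In both genes each shCDK5RAP3 library lay well above each shControl library.

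The next 3 rises were of membrane-arm subunits numbered in the NDUFB series. NDUFB10, a subunit facing the intermembrane space, had 95.9 and 102 CPM in the shCDK5RAP3 libraries, against 67.1 and 80.7 CPM in the shControl libraries (log2 change 0.42 ± 0.09 SE, edgeR adjusted p = 0.00531). NDUFB9, which binds an acyl carrier protein at the end of the membrane arm, had 163 and 175 CPM in the shCDK5RAP3 libraries, against 124 and 132 CPM in the shControl libraries (0.40 ± 0.07 SE, edgeR adjusted p = 0.00159). Thus NDUFAB1 and its binding partner NDUFB9 both lay higher without overlap between groups. NDUFB8, whose protein is widely used as a marker of assembled complex I, had 162 and 193 CPM in the shCDK5RAP3 libraries, against 128 and 146 CPM in the shControl libraries (0.37 ± 0.10 SE, edgeR adjusted p = 0.0121). These 3 calls were lost without shCDK5RAP3 replicate 2, with an edgeR adjusted p of 0.121 for NDUFB10, 0.0634 for NDUFB9 and 0.199 for NDUFB8. Without a filter on low counts NDUFB10 (0.104) and NDUFB8 (0.166) did not pass either.

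Another 7 accessory subunits rose by 0.23 to 0.36 on the log2 scale: NDUFA11 (0.36), NDUFB1 (0.31), NDUFA6 (0.29), NDUFC1 (0.28), NDUFA10 (0.28), NDUFB6 (0.25) and NDUFA5 (0.23). NDUFA11 and NDUFA10 belong to the proximal membrane arm with NDUFC1, NDUFB1 and NDUFB6 to the ND4 module, and NDUFA6 and NDUFA5 to the peripheral arm. In these 7 genes the groups did not overlap. None of the 7 passed without shCDK5RAP3 replicate 2 (edgeR adjusted p between 0.092 and 0.436), and NDUFA11 alone passed without shCDK5RAP3 replicate 1 (between 0.0505 and 0.144 for the other 6). Without shControl replicate 1 NDUFA10 alone passed (between 0.0505 and 0.184 for the others), and NDUFC1 was also lost without shControl replicate 2 (0.064). With DESeq2 NDUFB1, NDUFA6, NDUFC1, NDUFB6 and NDUFA5 did not pass (adjusted p between 0.066 and 0.0975). All but NDUFA10 were lost without a filter on low counts (edgeR adjusted p between 0.0739 and 0.309). NDUFA11 did not pass with edgeR's robust option (0.117), and NDUFA11 (0.0519), NDUFB6 (0.0591) and NDUFA5 (0.0621) did not with scaling by library size alone. Just outside the threshold were NDUFB7 (0.44, edgeR adjusted p = 0.0502), NDUFB2 (0.22, 0.0559) and NDUFA13 (0.28, 0.0568). Their calls change with the processing: of the 15 alternatives, NDUFB7 and NDUFB2 passed in 6 each and NDUFA13 in 7. NDUFB7 had 103 and 150 CPM in the shCDK5RAP3 libraries, against 83.2 and 103 CPM in the shControl libraries, so that replicate 2 stood well above replicate 1 in both groups.

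NDUFB5, an accessory subunit of the ND4 module, fell most. It had 38.0 and 40.5 CPM in the shCDK5RAP3 libraries, against 68.4 and 72.8 CPM in the shControl libraries, or 55.6% of the shControl mean (log2 change -0.85 ± 0.08 SE, edgeR adjusted p = 5.19e-05). NDUFC2, which lies beside ND2 in the proximal membrane arm, had 110 and 121 CPM in the shCDK5RAP3 libraries, against 171 and 195 CPM in the shControl libraries, or 63.1% (-0.66 ± 0.08 SE, edgeR adjusted p = 0.000257). The gap between groups was in both genes wider than the difference between libraries of a group. NDUFA12, an N-module subunit whose paralog is the assembly factor NDUFAF2, had 36.5 and 40.1 CPM in the shCDK5RAP3 libraries, against 52.2 and 56.0 CPM in the shControl libraries, or 70.8% (-0.50 ± 0.09 SE, edgeR adjusted p = 0.00162). With each library left out the log2 change of NDUFB5 lay between -0.90 and -0.79, that of NDUFC2 between -0.76 and -0.57 and that of NDUFA12 between -0.57 and -0.42.

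NDUFC2 and NDUFC1, whose proteins sit side by side in the membrane arm, went opposite ways, with log2 changes of -0.66 and 0.28. The read-through NDUFC2-KCTD14 shares 431 exon bases with NDUFC2. It had 0 and 0 counts in the shCDK5RAP3 libraries, against 6 and 16 counts in the shControl libraries, and was too low to be tested. A count of 0 allows up to 3 counts in a library, or 0.105 and 0.101 CPM in the shCDK5RAP3 libraries. Adding those reads to NDUFC2 left its log2 change at -0.67, an alternative chosen after seeing the data.

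**Figure D4:**
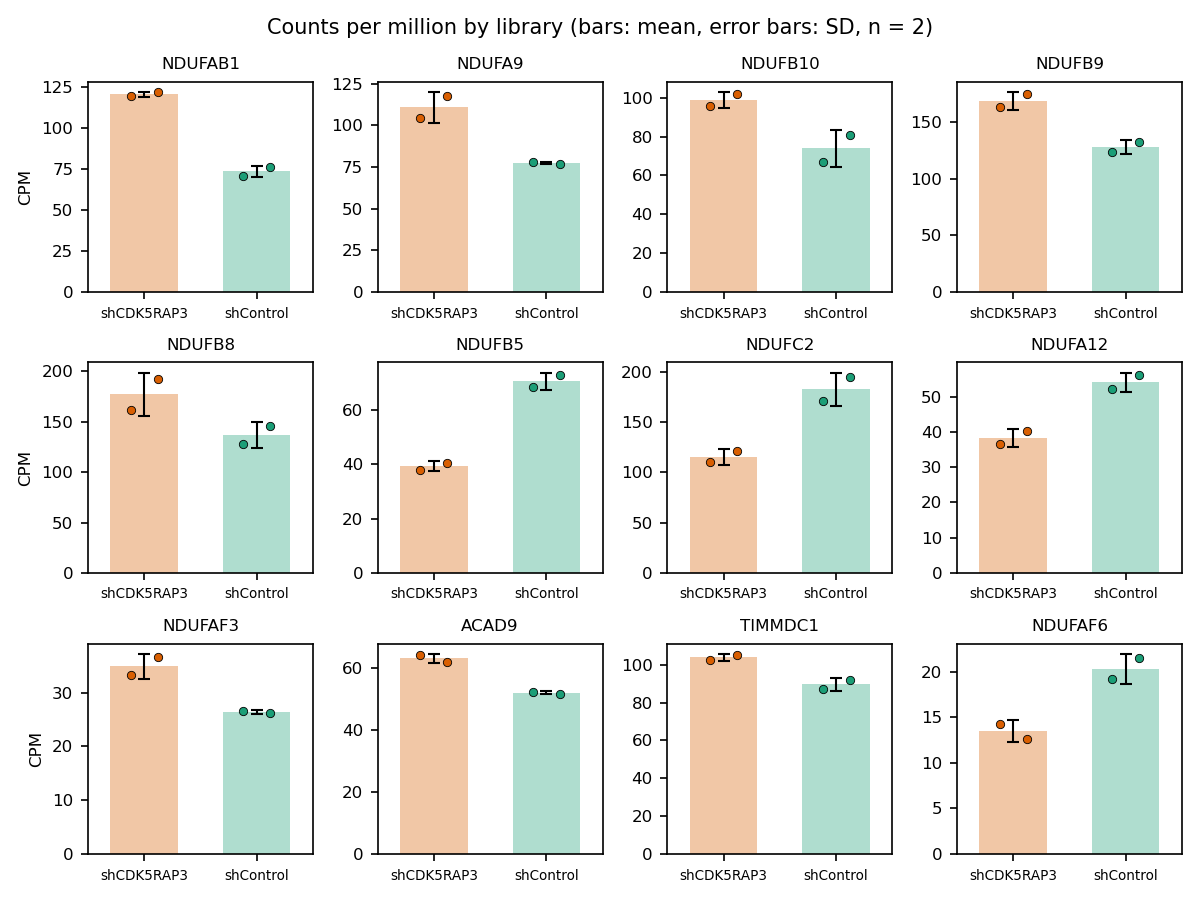
CPM in each library (points), with the mean (bars) and SD (error bars, n = 2 per group), of the subunits and assembly factors with the largest changes in each direction, shCDK5RAP3 at the left and shControl at the right of each panel, each y axis starting at 0. In all 12 panels the groups do not overlap, with NDUFB5 at 38.0 and 40.5 CPM in the shCDK5RAP3 libraries against 68.4 and 72.8 CPM in the shControl libraries.

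Among the assembly factors, NDUFAF3, which builds the Q module together with NDUFAF4, had 33.2 and 36.6 CPM in the shCDK5RAP3 libraries, against 26.7 and 26.2 CPM in the shControl libraries (log2 change 0.40 ± 0.09 SE, edgeR adjusted p = 0.00765). ACAD9, an acyl-CoA dehydrogenase family member of the MCIA complex that assembles the ND2 module, had 64.1 and 61.9 CPM in the shCDK5RAP3 libraries, against 52.2 and 51.6 CPM in the shControl libraries (0.28 ± 0.07 SE, edgeR adjusted p = 0.0116). TIMMDC1, a membrane-embedded factor of the ND1 module, had 103 and 105 CPM in the shCDK5RAP3 libraries, against 87.2 and 91.9 CPM in the shControl libraries (0.21 ± 0.06 SE, edgeR adjusted p = 0.0256). Groups did not overlap in these 3 genes. Without shCDK5RAP3 replicate 2 none of the 3 passed (edgeR adjusted p = 0.103 for NDUFAF3, 0.0819 for ACAD9 and 0.198 for TIMMDC1). Without shCDK5RAP3 replicate 1, ACAD9 (0.103) and TIMMDC1 (0.113) did not pass, and TIMMDC1 did not pass without shControl replicate 1 (0.0907) or with DESeq2 (0.0603). NDUFAF3 (0.0557) and TIMMDC1 (0.0882) did not pass without a filter on low counts.

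NDUFAF6, a factor of early ND1-module assembly, was the only assembly factor called lower. It had 14.3 and 12.7 CPM in the shCDK5RAP3 libraries, against 19.2 and 21.5 CPM in the shControl libraries, or 66.3% of the shControl mean (log2 change -0.59 ± 0.12 SE, edgeR adjusted p = 0.00469). The groups were well apart, but without shCDK5RAP3 replicate 2 the call was lost (edgeR adjusted p = 0.0794). CCNE2 and TP53INP1 lie on the opposite strand within the span of NDUFAF6 and share no exon bases with it. CCNE2 had 139 and 195 counts in the shCDK5RAP3 libraries, against 670 and 643 in the shControl libraries, and TP53INP1 had 388 and 411 in the shCDK5RAP3 libraries, against 684 and 588 in the shControl libraries. Both fell along with NDUFAF6, and their part in its value was not tested.

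The other 10 assembly factors did not pass. The partner of NDUFAF3, NDUFAF4, had 22.8 and 27.8 CPM in the shCDK5RAP3 libraries, against 28.4 and 30.2 CPM in the shControl libraries (log2 change -0.21 ± 0.11 SE, edgeR adjusted p = 0.177), so this pair lay on opposite sides of 0. Beside ACAD9, the MCIA members ECSIT (0.02), NDUFAF1 (-0.11) and TMEM126B (-0.18) had overlapping groups. NDUFAF5, which hydroxylates NDUFS7, was at 0.21 and its partner NDUFAF8 at 0.22 (edgeR adjusted p = 0.131 and 0.123). NDUFAF7, a methyltransferase of Q-module assembly, was at 0.11, the iron-sulfur cluster carrier NUBPL at 0.01, FOXRED1 at -0.11 and NDUFAF2, the NDUFA12 paralog that acts late in assembly, at -0.19. NDUFA12 and NDUFAF2 thus both had negative log2 changes, but that of NDUFAF2 did not pass (edgeR adjusted p = 0.152).

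The remaining members carry the NDUF prefix but are not complex I subunits. NDUFA4, now assigned to complex IV, had 198 and 212 CPM in the shCDK5RAP3 libraries, against 161 and 167 CPM in the shControl libraries (log2 change 0.32 ± 0.06 SE, edgeR adjusted p = 0.00383), a call lost without shCDK5RAP3 replicate 2 (0.0924). NDUFA4L2, its hypoxia-induced paralog, was low, at 2.84 and 1.66 CPM in the shCDK5RAP3 libraries, against 1.18 and 1.24 CPM in the shControl libraries (0.89 ± 0.34 SE, edgeR adjusted p = 0.0618). Its groups did not overlap, but the shCDK5RAP3 libraries differed more from each other than from the shControl libraries at their nearest, and it passed without shCDK5RAP3 replicate 2 (0.0494).

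Levels can be compared between members only per length, and here CPM was divided by the kilobases of all annotated exons of a gene. That length takes in the exons of every annotated transcript, with 548 bases for NDUFS5 and 12268 for NDUFS1. The order therefore depends on the annotation as well as on transcript levels. On this scale NDUFS5 had the highest level over the 4 libraries (247 CPM per kb, range 233 to 257), and NDUFB7 the next (207, range 157 to 282), with overlapping ranges. NDUFB10 followed at 80.8 CPM per kb. The median level was 33.6 and 35.7 CPM per kb for subunits in the shCDK5RAP3 libraries, against 30.1 and 32.2 in the shControl libraries, and 12.02 and 12.63 for assembly factors in the shCDK5RAP3 libraries, against 11.3 and 11.7 in the shControl libraries. The median of the assembly factors thus lay below that of the subunits in every library, while single assembly factors such as NDUFAF2 (48.9 CPM per kb over the 4 libraries) lay above many subunits. NDUFA3 was lowest, at 0.47 CPM per kb, with 16 and 39 counts in the shCDK5RAP3 libraries and 16 and 65 in the shControl libraries, and its log2 change of -0.56 ± 0.63 SE did not pass. Its neighbour on the opposite strand, TFPT, had 22 and 23 counts in the shCDK5RAP3 libraries and 4 and 114 in the shControl libraries. Whether the low counts of NDUFA3 come from low expression or from the mapping or counting of reads was not tested. Across the 37 subunits the log2 change had a Pearson correlation of 0.01 with log2 exon length and 0.29 with log2 CPM in the shControl libraries, values that come from the same libraries.

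Several member values rest on loci that other genes share. Of the members, 22 share exon bases with another gene that has a mean count of at least 10, 17 of them with a gene on the opposite strand, and the sources used here do not say whether counting used strand, so their values are uncertain. NDUFB8 shares 675 exon bases (33.8% of its exons) with the read-through AL133352.1, which had 1 and 0 counts in the shCDK5RAP3 libraries, against 212 and 184 in the shControl libraries. NDUFA13, a proximal-arm subunit also known as GRIM-19, shares 437 exon bases with the read-through AC011448.1, which had 407 and 347 counts in the shCDK5RAP3 libraries, against 118 and 98 in the shControl libraries (log2 change 1.80). These read-throughs moved in opposite directions. With read-through counts added to the member, an alternative chosen after seeing the data, NDUFB8 had a log2 change of 0.30 (edgeR adjusted p = 0.0276) and NDUFA13 passed at 0.35 (0.0179), while NDUFA11 did not (0.34, 0.0526). Pseudogenes of a member held at most 2.97% of the counts of that member, except for NDUFA3 (8.09%).

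The mitochondrially encoded subunits, which form the core of the membrane arm, had 4 rises of 7, and 3 did not pass. Of all tested genes 19.7% rose, and of those with a mean log2 CPM of at least 4, 30.5% did. MT-ND1 had 5435 and 5312 CPM in the shCDK5RAP3 libraries, against 2880 and 2711 CPM in the shControl libraries (log2 change 0.94 ± 0.05 SE, edgeR adjusted p = 2.38e-06). The shCDK5RAP3 mean was 192% of the shControl mean, with the libraries of each group close together. MT-ND5 (0.30), MT-ND6 (0.30) and MT-ND2 (0.15) also rose, while MT-ND3 (0.07), MT-ND4L (0.04) and MT-ND4 (-0.01) did not pass. MT-ND4 and MT-ND4L overlap on the mitochondrial genome, and MT-ND6 lies on the opposite strand. MT-ND5 did not pass without shCDK5RAP3 replicate 1 (edgeR adjusted p = 0.0713) or replicate 2 (0.0538), nor did MT-ND6 (0.0719 and 0.0643). MT-ND2 did not pass without either of them (0.0928 and 0.225) or without shControl replicate 2 (0.0885), nor with DESeq2 (0.0538). Without a filter on low counts MT-ND5 (0.0773), MT-ND6 (0.0551) and MT-ND2 (0.119) did not pass.

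Of 7 further genes of complex I assembly outside the NDUF prefix, 2 rose (28.6%) and 1 fell (14.3%), shares near the 19.7% and 21.8% of all tested genes. TMEM70, which assists assembly of complex I and ATP synthase, rose by 0.65 and DMAC1, a factor of the distal membrane arm, by 0.45 on the log2 scale (edgeR adjusted p = 0.000518 and 0.00474). COA1, a factor of the MCIA complex, fell by 0.52 (edgeR adjusted p = 0.000426). TMEM186 (0.24), DMAC2 (0.14), AIFM1 (0.12) and CHCHD4 (0.05) did not pass. The call of DMAC1 was lost without shCDK5RAP3 replicate 2 (edgeR adjusted p = 0.103) and without a filter on low counts (0.0879).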

How the data were processed

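Per the labels' protocols, TRIzol total RNA was made into TruSeq libraries. The values are the authors' unscaled counts by Ensembl identifier. HISAT2 2.2.0, StringTie and the build hg38 are named in the submitters' processing notes. The sources used here do not give the strand setting, the annotation release or the handling of reads with several matches.

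Groups and replicates came from the sample titles. Symbols, lengths and overlaps came from GENCODE 29 (56591 of 64252 identifiers matched) and promoter windows from RefSeq. Tests were run over all genes in R 4.3.3 with edgeR 4.0.16 (TMM factors, default filter by group, quasi-likelihood test, Benjamini-Hochberg adjustment over 18775 genes, threshold 0.05), checked on simulated data. Of the members 53 of 54 passed the filter. The standard error is the log2 change over the square root of the F statistic. A count of 0 allows 3 counts, at most 0.105 CPM, counting error only. An exact permutation over 2 against 2 libraries cannot give a p under 0.333, so none is given. Alternatives were other scaling (RLE, upper quartile, library size), DESeq2 1.42.0, no filter, 2 libraries with a CPM of 1 or more, edgeR's robust option (with limma 3.58.1), a replicate block, summing by symbol, an adjusted p under 0.01, and leaving out each library. The addition of read-through counts and the comparison with genes at a log2 CPM of at least 4 were chosen after seeing the data.

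Members and lists were chosen with earlier results of these data known. The values of 1 core subunit are not reported here, though it stays in the fits, counts, medians and sums. Full values are given for the other core subunits, the 5 highest and 5 lowest called subunits (only 3 fell), the 3 highest and 3 lowest called assembly factors, NDUFA4 and NDUFA4L2, other members by their values or range, and list genes past the threshold. Members just outside the threshold, overlapping genes and partners were named after their values were seen.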

Additional observations from a re-analysis of the deposited data

How the results depend on the processing

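Without a filter on low counts 5 subunits and 1 assembly factor were called higher, with 1966 genes higher and 2522 lower in all. At a threshold of 0.01 these were 6 of 37 subunits, 1 of 14 assembly factors and 2421 higher genes (12.9% of all tested genes). With the replicate block 5 subunits and 2 assembly factors were lower, where 25.1% of all tested genes were. In that fit 21 subunits were higher, where 23.6% of all tested genes were. NDUFV2 (-0.20, adjusted p = 0.0458) was among the lower and NDUFB7 (4.22e-06), NDUFA13 (0.000109) and NDUFB2 (0.00163) among the higher. Over all 18775 genes same-numbered libraries hardly deviated together (correlation 0.0534) and no label pairs them, so the numbers were not taken as pairs, although replicate 2 lay above replicate 1 for most subunits in both groups. By library size alone the assembly factor median was -0.0183. With 1 library left out, 2 to 19 subunits and 0 to 3 assembly factors were higher, 3 to 5 subunits and 0 to 1 assembly factors lower, 1556 to 3516 genes higher and 2196 to 3813 lower, and the assembly factor median ran from -0.11 to 0.12. Signs turned only for members that did not pass and for NRF1. With upper-quartile factors the log2 change was 0.0110 for NDUFS5, 0.00706 for NDUFV3 and 0.00394 for NRF1, by library size alone -0.0019 for NDUFS4, -0.0140 for ECSIT, -0.0202 for NDUFB3 and -0.0227 for NUBPL, and without a filter -0.00028 for NDUFB3 and -0.0024 for NUBPL. With 1 library left out the range was -0.0575 to 0.109 for NDUFS4, -0.0937 to 0.0550 for NDUFS5, -0.163 to 0.0728 for NDUFS7, -0.11 to 0.18 for NDUFA7, -0.0694 to 0.10 for ECSIT, -0.10 to 0.12 for NDUFB3, -0.14 to 0.15 for NUBPL, -0.0976 to 0.0445 for NRF1, -0.0173 to 0.306 for NDUFS6, -0.0149 to 0.167 for NDUFA8, -0.0938 to 0.0420 for NDUFV3, -0.30 to 0.11 for NDUFAF1 and -1.31 to 0.76 for NDUFA3. The causes were not tested. NDUFA3 and NDUFA4L2 had few counts, which limits what their values show, and the reason for the few counts was not tested.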

Other observations

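Regulators of nuclear respiratory genes, a list of 12, had 5 rises (41.7%) and 6 falls, where 19.7% of all tested genes rose and 21.8% fell. The mitochondrial DNA-binding factor TFAM rose most among the well expressed, at 125 and 138 CPM in the shCDK5RAP3 libraries against 72.2 and 75.6 CPM in the shControl libraries (log2 change 0.83, edgeR adjusted p = 3.81e-05). The ETS factor subunits GABPA (0.31) and GABPB1 (0.26) and the coactivator PPRC1 (0.28) also rose, as did MYC (2.32), from low counts of 36 and 30 in the shCDK5RAP3 libraries and 6 and 7 in the shControl libraries. YY1 fell by 0.46 and MYCN by 0.75, and so did the coactivators PPARGC1A (-1.69) and PPARGC1B (-0.81), ESRRA (-0.31) and CREB1 (-0.33). NRF1 did not pass (-0.03). Without shCDK5RAP3 replicate 1 the edgeR adjusted p was 0.117 for GABPA, 0.0809 for GABPB1, 0.133 for PPRC1, 0.0517 for MYC, 0.0532 for PPARGC1A, 0.126 for ESRRA and 0.0717 for CREB1. Without shCDK5RAP3 replicate 2 it was 0.141 for GABPA, 0.107 for GABPB1, 0.0712 for PPRC1, 0.0865 for PPARGC1A, 0.0725 for PPARGC1B, 0.0719 for ESRRA and 0.0722 for CREB1. PPARGC1A was also lost without shControl replicate 1 (0.0778) and GABPA without shControl replicate 2 (0.113). Without a filter on low counts PPARGC1A (0.0646), PPARGC1B (0.059), PPRC1 (0.0843), GABPA (0.103) and ESRRA (0.0674) did not pass. The calls of TFAM, YY1 and MYCN were kept with each library left out.

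Iron-sulfur cluster assembly supplies the cofactors of the core subunits. Of its 13 listed genes 2 rose, the chaperone HSPA9 (0.44) and the cluster carrier GLRX5 (0.44), and 1 fell, the cysteine desulfurase NFS1 (-0.95). Both shares, 15.4% and 7.69%, are below the 19.7% and 21.8% of all tested genes. NFS1 had 9.84 and 11.8 CPM in the shCDK5RAP3 libraries, against 20.4 and 21.5 CPM in the shControl libraries (edgeR adjusted p = 0.000461). NFS1 works in a complex with the acyl carrier protein encoded by NDUFAB1, which rose. The call of GLRX5 was lost without shCDK5RAP3 replicate 2 (edgeR adjusted p = 0.0686) and without a filter on low counts (0.0514).

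Earlier results on these libraries concerned genes whose 3′ UTRs hold the words AACACCT or ACACCTA. For each gene the longest annotated 3′ UTR among its transcripts was searched. Part of it may be coding sequence in other transcripts of the gene, which was not checked. Of 51 members with an annotated 3′ UTR, 8 hold either word there (17.2% of 13635 UTRs of tested genes do). Of these 8, 6 rose (NDUFA9, NDUFB9, NDUFS1, ACAD9, NDUFS3 and NDUFA5) and 2 did not pass (NDUFAF5 and FOXRED1), where 20 of all 53 tested members rose (37.7%) and 19.7% of all tested genes did. The words were taken from results on these same libraries, so the count is not independent evidence. With shCDK5RAP3 replicate 2 left out, NDUFA9 alone of these 6 passed, and the edgeR adjusted p of the others lay between 0.0513 and 0.311. Sites of NDUFA9, the largest rise among them, and NDUFS3, a core subunit, are given from the GENCODE 29 transcripts, 5′ to 3′, with the word in capitals.
NDUFA9, 3′ UTR position 6591 of 7209: attgcccattAACACCTtagcacaaat
NDUFS3, 3′ UTR position 703 of 846: aaggagaaagACACCTAaacagcttac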
